A study of Mus musculus with 30 samples.

Results

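The p53 target genes examined here are 35 named mouse genes, out of 36047 genes in the tables, and were chosen by symbol as genes that p53 is known to control. The list holds Trp53, which encodes p53, and its antagonist Mdm2, then 12 cell death genes, 7 genes grouped under cell cycle arrest, 5 DNA repair genes and 9 genes of metabolism and stress. All 35 symbols were found in the annotation. Bulk mRNA sequencing was done on NIH3T3-CG cells, which the labels call embryonic fibroblasts. NIH3T3 is an immortalised mouse line, and the suffix CG is not explained in the labels. The cells received 1 of 5 transcription factors, and there were 10 groups of 3 libraries.

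In the transduced cells, Prrx1 was switched on with doxycycline and the reference was the same Prrx1-transduced cells without doxycycline, so both groups carry the construct. No group received doxycycline without the Prrx1 construct. Effects of the drug and of Prrx1 therefore cannot be told apart in what is called Prrx1 induction below. The other groups were transfected. Prrx1 and Snai1 share 1 set of control transfections, Egr1 and Jun share another, and Srebf2 has its own. The series design describes the control as a control plasmid. Time after transfection, plasmid dose and the origin of the replicates are not given in the labels, so the p-values refer to variation among libraries that may be technical replicates. Comparisons that use the same controls (Prrx1 with Snai1, Egr1 with Jun) are not independent of each other.

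The p53 protein is a transcription factor that is kept low in unstressed cells by Mdm2, a ubiquitin ligase that binds p53 and marks it for degradation. DNA damage, oncogene signals and ribosomal stress stabilise p53, which then raises transcription of genes for arrest, repair and cell death, and of Mdm2 itself, closing a feedback loop. Much of this control acts on the protein, so the level of Trp53 RNA is not a measure of p53 activity. NIH3T3 cells are known to lack the Cdkn2a locus, whose product p19Arf inhibits Mdm2. Here Cdkn2a had 16 estimated counts in all 30 libraries and at most 4 in any one. The p53 relatives Trp63 and Trp73 had 34 and 101 estimated counts over the same libraries.

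Promoter windows of 300 bases, from 250 before to 50 after the RefSeq start on GRCm38.p6, were at hand for 27 of the 35 genes. They were searched for the p53 decamer, the 10-base unit that p53 binds in pairs, which is its own reverse complement as a pattern and so was read on both strands. It was present in the windows of 12 of the 27 genes, or 44.4%, against 9.55% of 27025 genes with a window. Those 12 genes were Trp53, Mdm2, Bax, Aen, Ei24, Cdkn1a, Ccng1, Gtse1, Gadd45a, Ckap2, Polk and Sesn1. A match of letters is a description and does not show binding. The windows of 5 genes follow, each outside the gene body and written 5′ to 3′ on the strand of the gene, with the decamer in capitals. They are shown because they hold the feedback pair Trp53 and Mdm2 and 3 targets whose levels are described further on, and because they show how far the single letters differ between promoters of 1 pathway.
Mdm2: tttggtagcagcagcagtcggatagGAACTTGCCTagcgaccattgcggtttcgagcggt
Cdkn1a: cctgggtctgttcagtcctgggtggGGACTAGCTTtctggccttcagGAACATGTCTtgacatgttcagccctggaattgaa
Ccng1: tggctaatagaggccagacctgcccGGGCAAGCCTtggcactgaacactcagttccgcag
Bax: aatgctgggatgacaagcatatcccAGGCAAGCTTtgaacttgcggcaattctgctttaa
Trp53: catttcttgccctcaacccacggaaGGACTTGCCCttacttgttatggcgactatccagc

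These stretches lie on GRCm38.p6 at chr10:117710910-117710969 (minus strand) for Mdm2, chr17:29090881-29090962 (plus) for Cdkn1a, chr11:40755437-40755496 (minus) for Ccng1, chr7:45467065-45467124 (minus) for Bax and chr11:69580259-69580318 (plus) for Trp53. Counted from the RefSeq start of the window, which need not be that of the main transcript, the decamer began at -186 in Mdm2, -185 in Ccng1, -201 in Bax and -75 in Trp53. Cdkn1a held 2 of them, at -73 and -51. The motifs of the delivered factors were searched in the same windows on both strands, and none of these patterns contains another. The AP-1 motif TGANTCA, which Jun binds, was in 2 of 27 genes (Ak1 and Fas; 7.41%, against 8.97% of all genes). The E-box CAGGTG, which Snai1 binds, was in 7 of 27 (Aen, Ak1, Bbc3, Cdkn1a, Ckap2, Gdf15 and Tigar; 25.9%, against 22.6%). The Egr motif GCGTGGGCG, the homeobox core TAATTA and the sterol regulatory element were in 0 of 27, against 0.707%, 6.12% and 0.27% of all genes. No match says only that these letters are not in this window.

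Library totals ran from 7996355 to 37068611 estimated counts, lowest in the transduced cells. The delivered factor was higher in every treated library than in any of its controls, by 3.85-fold for Prrx1 under doxycycline, 27.5-fold for transfected Prrx1, 123-fold for Snai1, 9.50-fold for Egr1, 22.1-fold for Jun and 4.19-fold for Srebf2, which checks the labels. The 8 fibroblast markers summed to 4748 to 9929 TPM (transcripts scaled for length and library size) over the groups, and immune, endothelial and neural markers to at most 53.02 TPM. Epithelial markers summed to 189 TPM in Egr1 replicate 3 (Krt18 alone at 125 TPM) and to 22.6 TPM or less in each of the other 29 libraries. Control replicate 1 of the Prrx1 and Snai1 experiment stood apart from the other two controls. Replicate 1 of the cells without doxycycline differed from replicate 2 in the share of mitochondrially encoded RNA, 3.34% against 1.20%.

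The p53 target genes differed by orders of magnitude in level, compared per transcript length in TPM. In the Srebf2 control libraries the highest were Bax at 239 ± 4.47 TPM, Cdkn1a at 237 ± 7.55 TPM, Phlda3 at 182 ± 6.52 TPM and Plk2 at 179 ± 21.3 TPM (SD, n = 3). Trp53 itself stood at 153 ± 4.65 TPM and Mdm2 at 105 ± 4.69 TPM there. At the low end, the death gene Pmaip1 reached 1.60 ± 0.146 TPM, Gdf15 at most 2.03 TPM in any library, and Perp was listed at 0 in all 6 Srebf2 experiment libraries. Perp and Gdf15 failed the filter on low counts in 2 or more of the 6 comparisons. The filter left 33 to 35 of the 35 genes to test.

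**Figure D1:**
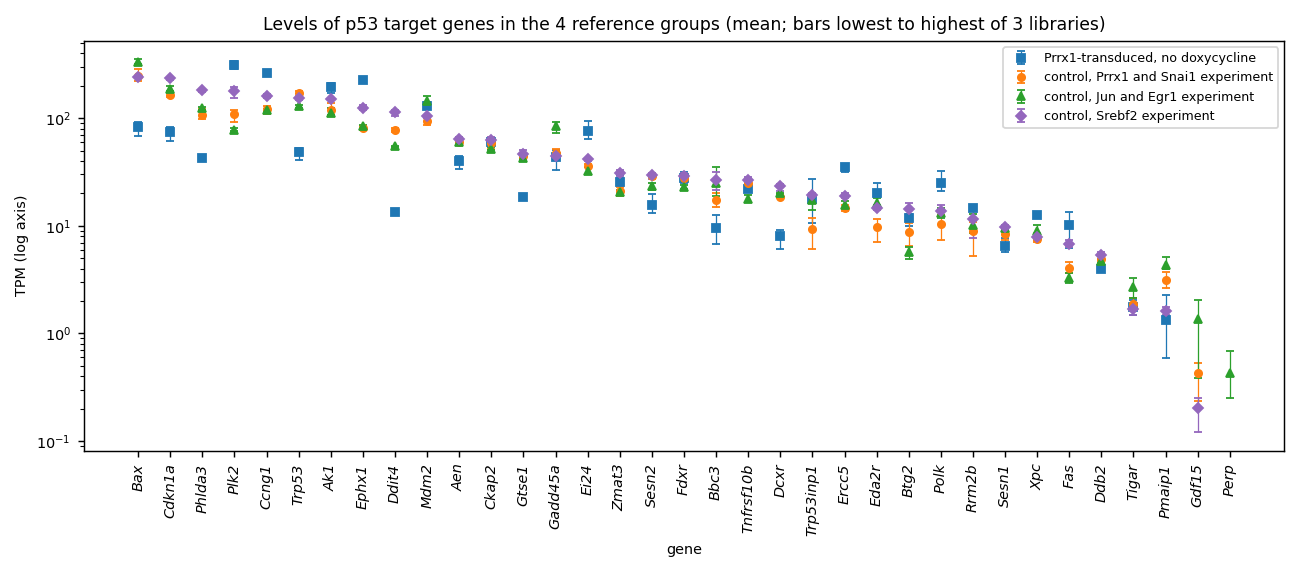
Mean TPM (log axis) of the 35 p53 target genes in the 4 reference groups, with bars from the lowest to the highest of 3 libraries. A group with any library at or near 0 is not drawn, even where its mean is above 0. Bax, Cdkn1a, Trp53 and Ddit4 stood lower in the Prrx1-transduced cells without doxycycline (squares) than in the 3 transfection controls, and Ccng1, Ephx1 and Ercc5 stood higher.

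Several of these genes stood at other levels in the transduced than in the transfected cells. This sets separate experiments side by side, in which the delivery, the construct and any library batch cannot be told apart. Trp53 was at 37.7 to 52.9 TPM in the 6 transduced libraries and 125 to 178 TPM in the 24 transfected ones. Bax ran from 68.7 to 92.1 TPM against 175 to 361 TPM, and Cdkn1a from 62.0 to 107 TPM against 150.4 to 242 TPM. Ccng1, a cyclin G that recruits a phosphatase to Mdm2, went the other way, with 253 to 323 TPM against 109 to 191 TPM. In all 4 genes the ranges did not overlap. Of the 33 members with a mean of at least 1 TPM, 10 lay wholly lower in the transduced libraries and 7 wholly higher, or 30.3% and 21.2%. Of all 12791 genes at that level, 17.7% lay wholly lower and 24.6% wholly higher, so such separation was common among all genes. Transcripts annotated as non-coding made up 19.7 to 23.8% of the summed TPM of the 35 genes in the transduced libraries and 4.64 to 7.20% in the transfected ones. Mdm2-206, a processed transcript without a coding frame, was at 56.6 to 91.0 TPM in the former and 2.65 to 24.8 TPM in the latter, and the retained-intron transcript Plk2-204 at 54.7 to 155 TPM against 0.314 to 7.67 TPM. Gene-level values of Mdm2 and Plk2 in the transduced cells include these transcripts.

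Across the 6 comparisons of a factor with its own control, 17 of the 35 genes were called changed at least once and 18 in none (edgeR quasi-likelihood test, Benjamini-Hochberg adjusted p under 0.05 over all tested genes). Prrx1 induction raised 3 and lowered 2 of 33 tested members, beside 3.46% and 2.74% of all tested genes. Transfected Prrx1 raised 3 and lowered 0 of 34, beside 1.93% and 1.05%. Snai1 raised 2 and lowered 0 of 34, beside 1.13% and 0.488%. Egr1 lowered 3 and raised 0 of 35, beside 0.124% and 0.2%. Jun lowered 4 and raised 0 of 35, beside 0.518% and 0.449%. Srebf2 lowered 9 and raised 1 of 33, beside 8.84% and 8.4%. The called members were thus all higher with transfected Prrx1 and with Snai1, which share controls, and all lower with Egr1 and with Jun, which share controls too. With Srebf2 the share of members lower was above that of all genes, and the share higher below it.

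The next counts cover all tested members, called or not. With Jun, 31 of 35 members had a log2 fold change below 0, with a median of -0.17 beside -0.01 for all tested genes. With Egr1 it was 25 of 35 (median -0.08 beside -0.01), and with Srebf2 24 of 33 (median -0.09 beside 0). With transfected Prrx1 and with Snai1, 27 of 34 members lay above 0 (medians 0.08 and 0.07 beside 0). With Prrx1 induction, 18 of 33 lay above 0 (median 0.13 beside -0.01). Counted by libraries, 19 members lay wholly below their controls with Jun (11.5% of all tested genes did) and 0 wholly above (11.1%). The same counts were 9 below and 0 above with Egr1 (7.89% and 7.81%), 13 below and 2 above with Srebf2 (17.7% and 17.6%), 1 below and 9 above with transfected Prrx1 (9.31% and 9.8%), 2 below and 10 above with Snai1 (10.2% and 10.4%), and 4 below and 8 above with Prrx1 induction (12% and 13.4%).

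**Figure D2:**
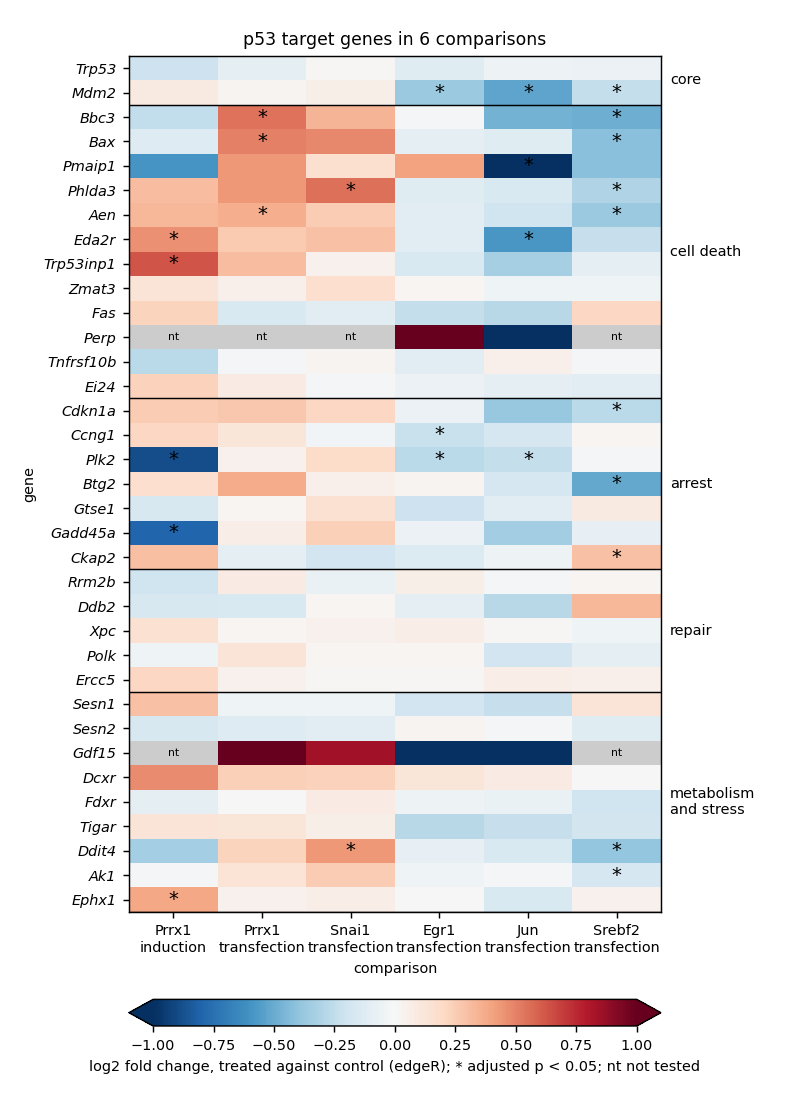
Log2 fold change of each p53 target gene (rows, ordered by role) in each of 6 comparisons of treated libraries with their own controls (columns); colour runs from -1 (blue) to 1 (red), stars mark edgeR adjusted p under 0.05 and nt marks genes not tested. Stars are on red in the Prrx1 and Snai1 transfection columns and on blue in the Egr1 and Jun columns, and the 5 repair genes carry none.

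Trp53 did not pass the test in any of the 6 comparisons, with edgeR or with DESeq2. At an unadjusted p under 0.05 it was lower in 1 of them, with Egr1, where its CPM (counts scaled to library size within each experiment) were 165, 156 and 163 in the controls and 152, 146 and 147 in the Egr1 libraries (log2 fold change -0.12, SE 0.0394, edgeR adjusted p = 0.276). Its log2 fold change was -0.21 with Prrx1 induction, -0.09 with transfected Prrx1, 0.01 with Snai1, -0.05 with Jun and -0.06 with Srebf2. Of the 31-base words in Trp53 transcripts, 89.8% occur in no other gene, so a share of its counts rests on reads that kallisto divided between genes.

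Mdm2 was lower with Egr1, Jun and Srebf2. In the controls of the first pair it stood at 250.4, 265 and 233 CPM, with Egr1 at 199.9, 198 and 180.2 CPM and with Jun at 169, 174 and 174 CPM. All 6 treated libraries lay below all 3 controls, and the Jun libraries were the closest together. The change was log2 fold change -0.37, SE 0.0523, edgeR adjusted p = 0.00961 for Egr1, and log2 fold change -0.53, SE 0.0526, edgeR adjusted p = 0.000823 for Jun. The Jun value passed with each library left out in turn; the Egr1 value did not pass without Egr1 replicate 2 or without control replicate 1. In the Srebf2 experiment Mdm2 went from 169, 165 and 162 CPM to 138, 137 and 146 CPM, again without overlap (log2 fold change -0.24, SE 0.0494, edgeR adjusted p = 0.00339). Its coding transcript Mdm2-201 overlapped there, at 57.4 to 60.0 TPM in the controls and 54.6 to 58.6 TPM with Srebf2. Mdm2-209 went from 6.68 to 12.4 TPM down to 1.99 to 4.20 TPM, without overlap. Mdm2-206 went the other way, from 4.22 to 10.6 TPM up to 8.58 to 20.7 TPM, with overlap. By transcript, the coding Mdm2-201 was at 75.2 to 79.7 TPM in the Jun and Egr1 controls, 68.9 to 76.9 TPM with Egr1 and 64.0 to 66.0 TPM with Jun. Mdm2-209, annotated for nonsense-mediated decay, was at 14.996 to 18.0, 5.43 to 8.02 and 4.68 to 7.97 TPM in the same order. On a log2(TPM + 1) scale the median of all genes stood higher by 0.148 with Egr1 and 0.145 with Jun. TPM therefore understates a fall against these controls, and the transcript ranges are not on a common scale. With both forms of Prrx1 and with Snai1, Mdm2 had log2 fold changes of 0.09, 0.03 and 0.06 and did not pass.

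**Figure D3:**
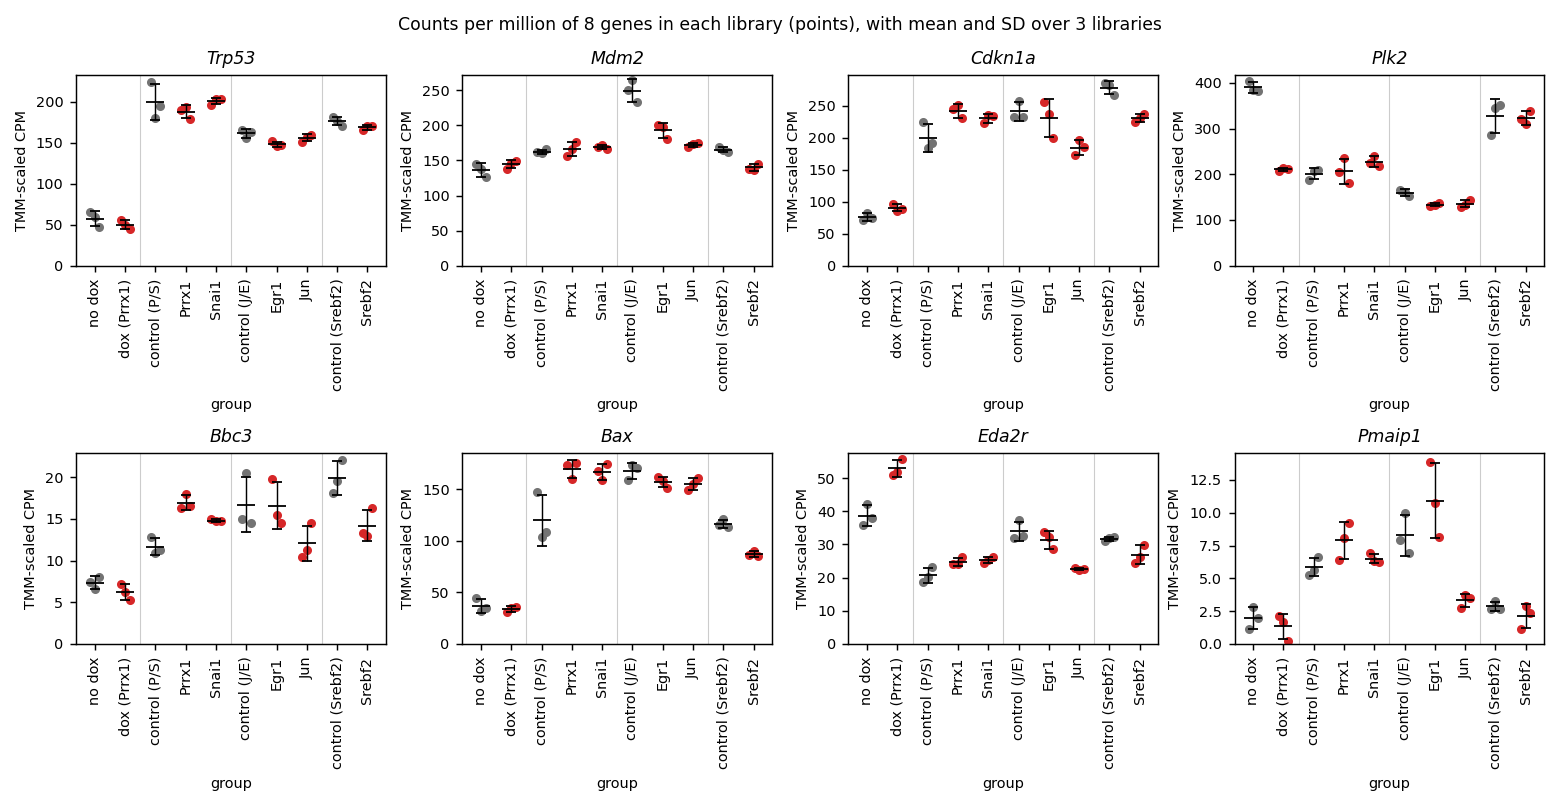
CPM of 8 p53 target genes in each library (points; grey for controls and for cells without doxycycline, red for treated), with the mean and SD over 3 libraries; vertical lines separate the 4 experiments, within which CPM was scaled. Mdm2 lies below its controls in all Egr1, Jun and Srebf2 libraries, Plk2 falls with doxycycline, and Pmaip1 is lowest within its experiment in the Jun libraries.

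The cell death genes, which are 12 of the 35 members, carried 12 of the 27 calls. With transfected Prrx1, 3 of 11 tested were called higher and 0 lower, beside 1.93% and 1.05% of all tested genes. Their median log2 fold change was 0.31 beside 0 for all genes. Bbc3 (Puma), a BH3-only protein that unleashes Bax, went from 12.9, 10.9 and 11.3 CPM in the controls to 16.3, 18.0 and 16.5 CPM (log2 fold change 0.54, SE 0.0966, edgeR adjusted p = 0.0101). Bax, which opens the outer mitochondrial membrane, went from 148, 103 and 108 CPM to 174, 159.9 and 175 CPM (log2 fold change 0.50, SE 0.111, edgeR adjusted p = 0.0309). Aen, an exonuclease that acts in apoptosis, went from 101, 78.2 and 83.1 CPM to 116, 111 and 108 CPM (log2 fold change 0.36, SE 0.0854, edgeR adjusted p = 0.0427). In all 3 genes the groups did not overlap, and control replicate 1 lay nearest to the Prrx1 libraries. The Bax and Aen calls were lost without any 1 of the Prrx1 libraries or without control replicate 2 or 3, and the Bbc3 call without Prrx1 replicate 2 or control replicate 3. DESeq2 called the same 3 and also Phlda3 (adjusted p = 0.0104) and Cdkn1a (adjusted p = 0.0204). In bulk RNA, a change in a share of the cells and a change of RNA per cell cannot be told apart, here and below.

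With Snai1, 1 of the 11 tested cell death genes passed, where 1.13% of all tested genes were higher and 0.488% lower. Phlda3, which competes with Akt for membrane lipids, went from 114, 80.7 and 86.7 CPM to 134, 134 and 144 CPM (log2 fold change 0.55, SE 0.115, edgeR adjusted p = 0.0317). All Snai1 libraries lay above the controls, and the call was lost without any 1 of them or without control replicate 2 or 3. Bax had 168, 159 and 174 CPM in the Snai1 libraries, above all 3 controls, at a log2 fold change of 0.48 (SE 0.111) that missed the threshold (edgeR adjusted p = 0.053; DESeq2 adjusted p = 0.00159). Bbc3 had 14.9, 14.7 and 14.7 CPM, again above the controls (log2 fold change 0.34, SE 0.0976, edgeR adjusted p = 0.101). Between Snai1 and Prrx1 libraries directly, 0 of the 34 tested members differed with edgeR and 0 with DESeq2, where 0.252% of all genes did with edgeR; at an unadjusted p under 0.05, 1 was higher and 2 lower with Snai1. The direct difference was -0.20 (SE 0.0953) for Bbc3 and -0.02 (SE 0.11) for Bax, so these data do not show that the responses differ, nor that they are alike.

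The number of members called in this experiment depended on control replicate 1. The 3 controls held 225, 184 and 191 CPM of Cdkn1a in replicate order, and replicate 1 was the highest also for Phlda3, Bax, Aen and Trp53. Without it, 8 of 34 members were called higher with Prrx1 (11% of all genes tested were) and 0 lower (8.72%). These were Gdf15 (log2 fold change 1.81), Bax (0.68), Bbc3 (0.61), Phlda3 (0.59), Aen (0.47), Cdkn1a (0.37), Ak1 (0.29) and Ddit4 (0.24). With Snai1, 11 were then called higher (12.4%) and 1 lower (10.4%). The 11 were led by Phlda3 (0.72), Bax (0.66), Ddit4 (0.45), Bbc3 (0.42) and Ak1 (0.40), and the lower one was Ckap2 (-0.23). For Prrx1 the share of members called higher was above that of all genes in both fits, and the call rule passed far more genes without this library. Mitochondrially encoded RNA was 2.05 to 2.48% of counts in the controls, 1.09 to 1.501% with Prrx1 and 1.07 to 1.36% with Snai1. Of the 13 mitochondrially encoded genes, 11 were called lower with Prrx1 and 12 with Snai1, or 10 and 4 with the GC and length offsets described further on. In mt-Co2, mt-Co3, mt-Atp6, mt-Nd3 and mt-Nd4l at most 1.89% of the 31-base words occur in no other gene. Counts of those genes rest largely on reads that kallisto divided between genes. The part of mitochondrially encoded RNA in the result was not tested.

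With Jun, 2 of 12 cell death genes were called lower, beside 0.518% of all tested genes. Pmaip1 (Noxa), a BH3-only protein that neutralises Mcl1, went from 7.95, 9.99 and 6.94 CPM in the controls to 2.76, 3.71 and 3.52 CPM, a 2.49-fold drop (log2 fold change -1.32, SE 0.208, edgeR adjusted p = 0.0159). With Egr1 it stood at 13.9, 10.8 and 8.15 CPM, overlapping the controls. Eda2r, a receptor of the tumour necrosis factor family, went from 31.9, 37.4 and 32.6 CPM to 23.0, 22.3 and 22.7 CPM (log2 fold change -0.58, SE 0.0782, edgeR adjusted p = 0.00423). The Jun libraries lay below all controls and all Egr1 libraries for both genes. With edgeR the direct difference between Jun and Egr1 passed for these 2 members of 35 (0.449% of all genes), and DESeq2 added Perp and Cdkn1a. It was -1.72 for Pmaip1 (edgeR adjusted p = 0.00342) and -0.47 for Eda2r (edgeR adjusted p = 0.0179). The Pmaip1 call against the controls was lost without any 1 of the 3 Jun libraries, and its difference from Egr1 without Jun replicate 3. The Eda2r call against the controls held in each fit with a library left out, while its difference from Egr1 held only without Egr1 replicate 3.

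Bbc3 with Jun was at 10.4, 11.3 and 14.4 CPM against 15.01, 20.5 and 14.5 CPM, all below the controls, but did not pass (log2 fold change -0.47, SE 0.178, edgeR adjusted p = 0.254). Bax had 149, 155 and 161 CPM with Jun and 161, 158 and 151 CPM with Egr1 against 159, 174 and 170.4 CPM in the controls, with overlap in both (-0.12 and -0.10). With Egr1, Bbc3 was at 19.8, 15.4 and 14.5 CPM and overlapped the controls (log2 fold change -0.01, SE 0.174, edgeR adjusted p = 0.995). Perp, a p53 target that is also a component of epithelial desmosomes, had 46, 10 and 157 estimated counts in the Egr1 libraries, 12, 26 and 15 in the controls and 4, 1 and 3 with Jun. The library with 157 is Egr1 replicate 3, in which the 7 epithelial markers summed to 189 TPM. The epithelial markers summed to 7.38 to 10.1 TPM in the controls and 2.02 to 5.53 TPM with Jun, and all 6 that were tested lay below 0 with Jun (median log2 fold change -1.70). The part of epithelial RNA in the Perp values was not tested, and Perp passed with neither factor against the controls. Without that library the 3 members called with Egr1 were still called lower.

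With Srebf2, 4 of 11 tested cell death genes were called lower and 0 higher, beside 8.84% and 8.4% of all tested genes. Bax went from 116, 121 and 113 CPM to 86.0, 90.3 and 84.8 CPM (log2 fold change -0.42, SE 0.0537, edgeR adjusted p = 9.52e-05). Aen went from 96.1, 92.2 and 89.1 CPM to 73.3, 69.0 and 71.6 CPM (log2 fold change -0.37, SE 0.055, edgeR adjusted p = 0.000358). Bbc3 went from 18.0, 19.5 and 22.1 CPM to 13.3, 12.9 and 16.3 CPM (log2 fold change -0.49, SE 0.105, edgeR adjusted p = 0.00492). No group overlapped in these genes, nor in Phlda3, which went from 158, 163 and 151 CPM to 125, 121 and 139 CPM (log2 fold change -0.30, SE 0.0575, edgeR adjusted p = 0.00238). All 4 calls held with each library left out. Mitochondrially encoded RNA was 2.94 to 3.25% of counts in the controls and 3.65 to 3.96% with Srebf2, with 8 of 13 of its genes called higher (4 with those offsets), and its part in the result was not tested. The limit of shared sequence given above for some of the 13 genes holds here too.

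Prrx1 induction raised 2 of 11 tested cell death genes and lowered 0, beside 3.46% and 2.74% of all tested genes. Trp53inp1, which promotes p53 phosphorylation and autophagic death, went from 39.4, 59.0 and 52.2 CPM without doxycycline to 81.4, 74.6 and 75.7 CPM with it (log2 fold change 0.63, SE 0.135, edgeR adjusted p = 0.0192). Its coding transcript Trp53inp1-201 stood at 4.70 to 5.33 TPM and then 4.21 to 7.12 TPM, and the processed transcript Trp53inp1-202 at 4.81 to 10.6 TPM and then 12.9 to 16.6 TPM. Eda2r went from 35.9, 42.1 and 37.9 CPM to 51.1, 52.0 and 55.8 CPM (log2 fold change 0.46, SE 0.106, edgeR adjusted p = 0.0262). Both groups were apart in both genes. The Trp53inp1 call was lost without any 1 of the doxycycline libraries or without replicate 3 of the cells left untreated, and the Eda2r call held only without untreated replicate 2. Bbc3 (-0.25) and Bax (-0.13) did not pass, with overlapping groups. The direct difference between the 2 ways of delivering Prrx1 was -0.80 (SE 0.221) for Bbc3 and -0.64 (SE 0.201) for Bax, with edgeR adjusted p = 0.052 and 0.0961. Without control replicate 1 of the transfections it was -0.88 (SE 0.228, edgeR adjusted p = 0.0272) and -0.83 (SE 0.158, edgeR adjusted p = 0.00468), both past the threshold, as they were with DESeq2 and all libraries (adjusted p = 0.0227 and 0.0347).

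Among the 7 arrest genes, the largest change was the fall of Plk2 with Prrx1 induction. Plk2, a polo-like kinase that acts in G1 and at the centriole, went from 404, 385 and 383 CPM to 207, 214 and 212 CPM, a 1.85-fold drop (log2 fold change -0.89, SE 0.0713, edgeR adjusted p = 2.1e-05). The 2 groups were far apart and each was tight, and the call held with each library left out. The coding Plk2-201 went from 165 to 180 TPM down to 93.7 to 99.2 TPM, and the retained-intron Plk2-204 from 99.4 to 155 TPM down to 54.7 to 78.6 TPM. Gadd45a, a stress sensor that binds Cdk1 and Pcna, went from 21.0, 19.3 and 14.1 CPM to 10.9, 10.98 and 9.70 CPM (log2 fold change -0.79, SE 0.185, edgeR adjusted p = 0.0279), without overlap. That call was lost without any 1 of the doxycycline libraries or without untreated replicate 1. Without untreated replicate 1, 4 members were called higher (Trp53inp1, Ephx1, Aen and Ckap2; 3% of all genes were higher) and 1 lower (Plk2; 2.28%). The mitochondrial share was 3.34% in that library, 1.20% in untreated replicate 2 and 1.92% in untreated replicate 3, so replicate 1 was not alone in standing apart. Over all genes, 632 were called higher and 618 lower without untreated replicate 2. The same counts were 422 and 321 without replicate 1, and 471 and 373 with no library left out. With transfected Prrx1 neither Plk2 nor Gadd45a passed. Plk2 was at 205, 235 and 180.4 CPM there against 188, 207 and 209 CPM. Gadd45a was at 28.3, 33.2 and 33.8 CPM against 34.1, 30.5 and 26.5 CPM. Those groups overlapped in both genes. Of the 31-base words of Gadd45a, 83.0% are its own.

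Plk2 was also lower with Egr1 and Jun, by less. It went from 167, 160.2 and 153 CPM in the controls to 129.8, 133 and 136 CPM with Egr1 (log2 fold change -0.27, SE 0.0486, edgeR adjusted p = 0.0378) and 129, 132 and 145 CPM with Jun (log2 fold change -0.24, SE 0.0487, edgeR adjusted p = 0.0364). Ccng1 went from 309, 315 and 319.6 CPM to 259, 277 and 272 CPM with Egr1 (log2 fold change -0.22, SE 0.04, edgeR adjusted p = 0.0378). With Jun it stood at 285, 283 and 271 CPM and missed the threshold (log2 fold change -0.17, SE 0.0401, edgeR adjusted p = 0.0675). These groups did not overlap. The Egr1 calls of Plk2 and Ccng1 held only without Egr1 replicate 3, and the Plk2 call with Jun was lost whichever library was left out. The Jun libraries also held 172, 196 and 185 CPM of Cdkn1a against 232, 258 and 233 CPM, all below, where edgeR gave an adjusted p = 0.0895 and DESeq2 0.000339. With Egr1, Cdkn1a was at 256.08, 237 and 199 CPM and overlapped the controls (-0.06).

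With Srebf2, 2 of the 7 genes listed under arrest fell and 1 rose, beside 8.84% and 8.4% of all tested genes. Cdkn1a (p21), which inhibits cyclin-dependent kinases, went from 285, 282 and 267 CPM to 224, 231 and 237 CPM (log2 fold change -0.27, SE 0.0493, edgeR adjusted p = 0.0015). Btg2, an antiproliferative gene that promotes deadenylation, went from 23.8, 26.2 and 29.6 CPM to 18.9, 18.5 and 18.6 CPM (log2 fold change -0.51, SE 0.0879, edgeR adjusted p = 0.00102). Ckap2 is listed under arrest but is a spindle protein made by dividing cells, so its rise is not a rise of an arrest gene. It went from 101, 96.1 and 95.2 CPM to 113, 127 and 118 CPM (log2 fold change 0.29, SE 0.0567, edgeR adjusted p = 0.00241). None of these groups overlapped and all 3 calls held with each library left out. Cdkn1a lay above its references in all treated libraries with Prrx1 induction (70.9, 82.9 and 74.8 CPM, then 96.6, 86.1 and 88.3 CPM; log2 fold change 0.25, SE 0.0934, edgeR adjusted p = 0.173) and with transfected Prrx1 (245, 250.4 and 229.9 CPM; log2 fold change 0.27, SE 0.0751, edgeR adjusted p = 0.073), and did not pass in either with edgeR. With Snai1 it overlapped the controls (0.21).

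None of the 5 repair genes (Rrm2b, Ddb2, Xpc, Polk and Ercc5) was called in any of the 6 comparisons with edgeR or with DESeq2. Rrm2b makes deoxynucleotides, Ddb2, Xpc and Ercc5 act in nucleotide excision repair, and Polk is a bypass polymerase. At an unadjusted p under 0.05, 1 of 5 was lower with Jun (Polk, 28.6, 24.9 and 24.3 CPM against 30.5, 28.9 and 29.6 CPM, log2 fold change -0.19, SE 0.068, edgeR adjusted p = 0.202) and 1 of 5 higher with Srebf2 (Ddb2, 9.40, 8.30 and 6.67 CPM against 6.49, 6.49 and 6.36 CPM, log2 fold change 0.33, SE 0.142, edgeR adjusted p = 0.12). Their median log2 fold change lay between -0.04 and 0.04 in all 6 comparisons. Ddb2, at 3.53 to 8.29 TPM over all libraries, shares more sequence with other genes than the rest of the list, with 79.4% of its 31-base words unique, and Rrm2b has 85.7%.

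Of the 9 genes of metabolism and stress, 4 calls were made on 3 genes. Ddit4 (Redd1), an inhibitor of mTORC1, was higher with Snai1, from 89.8, 84.1 and 87.5 CPM to 115, 122 and 115 CPM (log2 fold change 0.43, SE 0.0744, edgeR adjusted p = 0.0127). With Srebf2 it was lower, from 133, 134 and 117 CPM to 99.6, 104 and 89.4 CPM (log2 fold change -0.39, SE 0.066, edgeR adjusted p = 0.0011), and neither pair of groups overlapped. The Snai1 call was lost without any 1 of the Snai1 libraries or without control replicate 3, and the Srebf2 call held throughout. Ak1, an adenylate kinase, was lower with Srebf2, from 159, 163 and 156 CPM to 136, 137 and 150.4 CPM (log2 fold change -0.17, SE 0.0528, edgeR adjusted p = 0.0304), a call that held only without Srebf2 replicate 3. Ephx1, which hydrolyses epoxides, rose with Prrx1 induction from 163, 138 and 146 CPM to 191, 195 and 200.4 CPM (log2 fold change 0.39, SE 0.0829, edgeR adjusted p = 0.0175), and that call was lost without any 1 of the doxycycline libraries or without untreated replicate 3. Sesn1, Sesn2, Dcxr, Fdxr and Tigar were called in none of the 6. Gdf15, a secreted stress factor, had 0.626, 1.57 and 1.13 CPM with transfected Prrx1 against 0.475, 0.192 and 0.435 CPM, from at most 32 estimated counts, and did not pass (log2 fold change 1.60, SE 0.47, edgeR adjusted p = 0.0922).

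Base composition moved with the comparisons to different degrees. Over all tested genes, the log2 fold change had a Spearman correlation with transcript GC content of -0.48 with Srebf2 (12715 genes), 0.33 with Snai1 and 0.13 with transfected Prrx1 (13097 genes each). It was -0.18 with Jun and -0.09 with Egr1 (14469 genes each) and -0.14 with Prrx1 induction (13616 genes). Genes are not independent replicates. Several of the members called are GC-rich. Bbc3 has 67.7% GC, Phlda3 62.2%, Bax 59.5% and Ddit4 57.9%, while the median of the tested members is 49.7% with Srebf2. The fits were therefore repeated with an offset per library for GC content and transcript length, a choice made after the data were seen.

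With these offsets, transfected Prrx1 raised 9 of 34 members (5.45% of all tested genes were higher) and lowered 0 (3.99%). The 9 were Bbc3, Bax, Aen, Phlda3, Cdkn1a, Pmaip1, Eda2r, Trp53inp1 and Gdf15. Bax was then at 0.39 (adjusted p = 7.54e-05 with edgeR) and Cdkn1a at 0.29 (adjusted p = 0.000803 with edgeR). Snai1 raised 6 of 34 (3.01%) and lowered 0 (1.95%), namely Bax, Phlda3, Aen, Eda2r, Cdkn1a and Ddit4. With Srebf2 the offsets left 8 of 33 members lower (4.82%) and 1 higher (4.18%). Mdm2 (-0.31), Bax (-0.24), Aen (-0.31), Cdkn1a (-0.20), Btg2 (-0.53) and Ddit4 (-0.27) remained lower and Ckap2 (0.17) higher, while Eda2r (-0.37) and Trp53inp1 (-0.29) joined. Bbc3 turned to 0.11, Phlda3 to -0.01 and Ak1 to -0.08, and none of the 3 passed. The offsets left the same 5 members called with Prrx1 induction (3 higher beside 3.21% of all genes, 2 lower beside 3.02%) and the same 3 lower with Egr1 (0.235%; 0.256% of all genes were higher). With Jun they left the same 4 plus Ccng1 lower (0.518%, with 0.318% of all genes higher), where Ccng1 was at -0.23 (adjusted p = 0.0151 with edgeR).

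**Figure D4:**
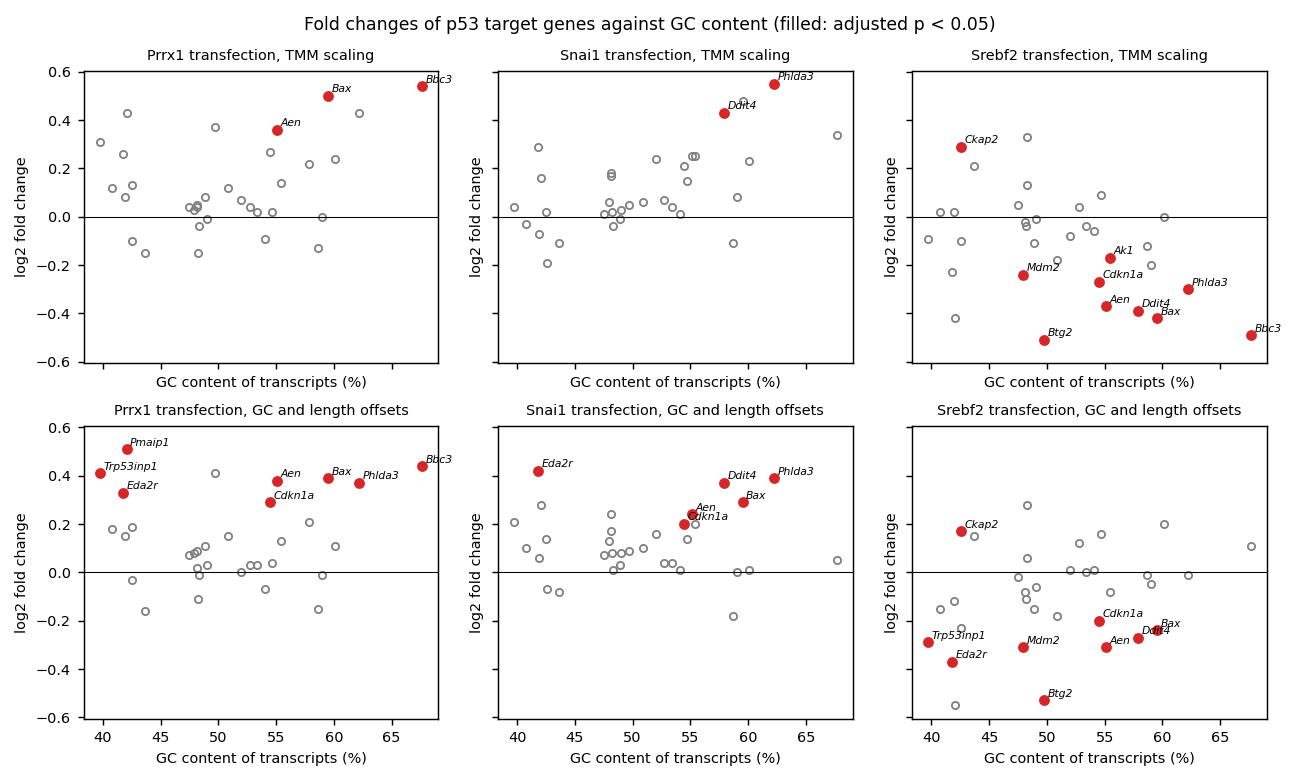
Log2 fold change of the tested p53 target genes against the GC content of their transcripts (%), for 3 transfections (columns), with TMM scaling alone (top) and with GC and length offsets (bottom). Filled, named points have an edgeR adjusted p under 0.05. Gdf15 is not drawn, though it was tested with Prrx1 and Snai1 and was called higher with Prrx1 under the offsets. In the Srebf2 panels, Bbc3 and Phlda3 move from below 0 to near 0 with the offsets, and Mdm2, Btg2, Bax, Aen, Cdkn1a and Ddit4 remain below 0.

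Genes around p53 that are not on the member list were looked at in a list of 24 regulators, of which 21 or 22 were tested. Prrx1 induction raised 1 and lowered 1, beside 3.46% and 2.74% of all tested genes. Atr, a kinase that signals replication stress to p53, went from 69.3, 76.6 and 71.4 CPM to 193, 179 and 156 CPM (log2 fold change 1.28, SE 0.0957, edgeR adjusted p = 1.24e-05). Rpl11, a ribosomal protein that can bind and inhibit Mdm2, went from 78.7, 56.3 and 74.2 CPM to 46.5, 48.2 and 38.6 CPM (log2 fold change -0.66, SE 0.138, edgeR adjusted p = 0.0172); it has many processed copies in the genome, and 81.5% of its 31-base words are unique. Jun raised 1, the kinase Hipk2, from 87.0, 78.8 and 82.2 CPM to 105, 119 and 121 CPM (log2 fold change 0.48, SE 0.0622, edgeR adjusted p = 0.00423), and lowered 0. Of all tested genes, 0.449% were higher and 0.518% lower with Jun. Transfected Prrx1, Snai1 and Egr1 changed 0 of them with edgeR, with 2, 1 and 4 at an unadjusted p under 0.05. DESeq2 called 0, 0 and 1 of them.

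Srebf2 lowered 3 regulators and raised 1, where 8.84% of all tested genes were lower and 8.4% higher. Rpl11 fell from 442, 492 and 434 CPM to 337, 340.3 and 339 CPM (log2 fold change -0.43, SE 0.0535, edgeR adjusted p = 7.84e-05) and Rpl23 from 1018, 1159.9 and 1068 CPM to 891, 901 and 947 CPM (log2 fold change -0.25, SE 0.0561, edgeR adjusted p = 0.00654). Ppp1r13l (iASPP), an inhibitor of p53, was at -0.21 and turned to 0.01 with the GC and length offsets. Usp7, which removes ubiquitin from Mdm2 and p53, rose by 0.19 on the log2 scale (SE 0.0489, edgeR adjusted p = 0.012) and was at 0.09 with the offsets, which ended the call (adjusted p = 0.276 with edgeR). Rpl11 (-0.36) and Rpl23 (-0.24) remained lower with them. Of 19 genes of the apoptosis machinery that are not on the member list, 17 were tested. Beside the same shares of all genes, Srebf2 lowered Casp9 (-0.24) and Bcl2l1 (-0.18) and raised Xiap (0.16), which turned to -0.04 with the offsets. None of these 3 passed with the offsets. Prrx1 induction raised Bcl2l1, which blocks Bax, from 80.2, 84.6 and 79.5 CPM to 97.0, 103 and 105 CPM (log2 fold change 0.32, SE 0.082, edgeR adjusted p = 0.0416). Of all tested genes, 3.46% were higher with induction. DESeq2 called none of the 3 Srebf2 changes. The other 4 comparisons changed 0 of the 17 with edgeR and 0 with DESeq2, with 2, 1, 2 and 3 at an unadjusted p under 0.05 for transfected Prrx1, Snai1, Egr1 and Jun.

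Because Prrx1 was delivered in 2 ways, the effect of induction was set against that of transfection in 1 fit of all 4 groups. The difference passed for 3 of 35 members, all lower with induction (2.01% of all genes were lower and 1.98% higher). They were Plk2 (log2 fold change -0.93, SE 0.129, edgeR adjusted p = 0.00038), Gadd45a (log2 fold change -0.87, SE 0.213, edgeR adjusted p = 0.0296) and Ddit4 (log2 fold change -0.56, SE 0.145, edgeR adjusted p = 0.0364). The Plk2 difference passed in all 12 fits with a library left out, and those of Gadd45a and Ddit4 in 4 each. With the GC and length offsets Plk2 (-1.03) and Gadd45a (-0.74) remained past the threshold and Ddit4 did not (adjusted p = 0.0556 with edgeR). Prrx1 itself rose less in the induced cells, by 3.85-fold against 27.5-fold. Doxycycline and the delivery differ between the 2 experiments. The sample titles name no culture or library batch, and any such difference cannot be told apart from these.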

How the data were processed

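Bulk mRNA of 30 libraries (10 groups of 3) was quantified by the authors with kallisto 0.43.0 and build mm10, both named in the labels (per the submitters' processing notes). Which annotation release they used is not given in the sources used here. The deposited files give estimated counts and TPM per transcript, as the authors' kallisto run wrote them, for 118491 targets. Of these, 116816 matched GENCODE M21 and were summed to 36047 genes. Unmatched targets other than the reporters GFP_t1 and mScarlet held 0.605 to 0.694% of counts. Reporter counts lie outside that range and were not summed to genes. Counts on genes were 34970476 of 36470538 in replicate 1 of the Jun and Egr1 controls, and 35130906 of 35487894 in Egr1 replicate 1. Sums of estimated counts were rounded.

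Each experiment was fitted on its own groups with edgeR 4.0.16 (R 4.3.3): TMM scaling, filterByExpr (minimum count 10, total 15), robust quasi-likelihood F test, Benjamini-Hochberg adjustment over all tested genes, threshold 0.05, prior count 0.125. Standard errors were derived from the F statistic. CPM is TMM-scaled within an experiment and TPM sets levels between genes. The 35 members and the other lists were chosen with earlier results of these data known. Named genes were Trp53, Mdm2, Cdkn1a, Bax and Bbc3 in each comparison, every other called member, the delivered factor and up to 4 called genes of each other list, by size of change; Polk, Ddb2, Gdf15 and Perp were named after their values were seen.

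Alternatives were DESeq2 1.42.0, RLE size factors, no filter, a filter of 5 CPM in 3 libraries, limma 3.58.1 on log2(TPM + 1), a replicate block, 1 fit of all libraries, each library left out and, added after the data were seen, offsets for GC content and length (spline with 5 degrees of freedom; 79 genes without a value had the median). No 2 replicates agreed within sampling noise (lowest chi-square per gene 3.56 over 30 pairs). The fits were tested on simulated data with 200 genes changed 2-fold. Without offsets, 65.3% of those tested were recovered for Prrx1 induction, 67.5% for Jun and 87.2% for Srebf2. The lowest share was 47.7%, for induction minus transfection. Smaller changes were not simulated, so a gene that was not called is not shown to be unchanged. Promoter windows came from RefSeq GRCm38.p6, and motifs were read by exact letters with Python 3.11.15.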

Additional observations from a re-analysis of the deposited data

Results flagged for a closer look

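Plk2, Gadd45a and Ddit4 responded differently to the 2 ways of delivering Prrx1, by a test of the difference between the effects. Only the induced cells received doxycycline, which cannot be told apart from Prrx1 there. For Plk2 the effect of induction minus that of transfection was -0.93 on the log2 scale (SE 0.129, edgeR adjusted p = 0.00038), from -0.89 with doxycycline and 0.04 with the transfected plasmid. All 3 doxycycline libraries lay below their references, and the transfected libraries overlapped theirs.

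For Gadd45a the difference was -0.87 (edgeR adjusted p = 0.0296), from -0.79 and 0.07. For Ddit4 it was -0.56 (edgeR adjusted p = 0.0364), from -0.34 and 0.22, neither of which passed on its own. Ddit4 stood at 16.4, 15.2 and 14.3 CPM without and 11.5, 12.1 and 12.7 CPM with doxycycline, and at 89.8, 84.1 and 87.5 CPM in the controls and 107, 108 and 89.9 CPM with transfected Prrx1. The Gadd45a and Ddit4 differences were lost in 8 of 12 fits that left out 1 library each.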

How the results depend on the processing

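Of 32 called member values in the 9 comparisons, DESeq2, RLE size factors and a filter of 5 CPM in 3 libraries each kept 32 past the threshold in the same direction, no filter 31, the replicate block 28, the GC and length offsets 28, a fit of all 30 libraries 26 and limma on log2(TPM + 1) 17. Leaving out each library in turn kept 13 of the 32 in every fit. The number of members called moved to 1 (limma) and 9 (all libraries) for Prrx1 induction, to 5 (DESeq2), 5 (no filter) and 9 (offsets) for transfected Prrx1, and to 6 (offsets) for Snai1. It moved to 0 (limma), 1 (replicate block) and 1 (all libraries) for Egr1, 8 (DESeq2) for Jun, 4 (DESeq2) and 1 (limma) for Jun minus Egr1, and 5 (DESeq2), 1 (limma) and 6 (all libraries) for induction minus transfection. The cause was not tested. With a library left out the counts ran from 1 to 5 for induction, 0 to 8 for transfected Prrx1, 0 to 12 for Snai1, 0 to 3 for Egr1, 2 to 3 for Jun, 9 to 12 for Srebf2, 0 to 0 for Snai1 minus Prrx1, 0 to 3 for Jun minus Egr1 and 1 to 5 for induction minus transfection. In the Srebf2 comparison the offsets turned Bbc3 to 0.11, Xiap to -0.04 and Ppp1r13l to 0.01, and limma put Ppp1r13l at 0.00. The limma scale also moved the median of all genes by 0.148 with Egr1 and 0.145 with Jun, where 1209 and 2176 genes were called higher and 18 and 48 lower. Over all genes, called changes with Prrx1 induction were 471 higher and 373 lower, 112 and 43 with limma, and 988 and 1717 with all libraries; with Srebf2 they were 1069 and 1125, and 660 and 325 with limma. Same-numbered libraries share only a number: their deviations from the group means correlated at -0.17 to 0.143 over 24 pairs, 3 of them over 0.1, so the replicate block is not read as a pairing. Perp and Gdf15, with few counts, failed the filter in some comparisons.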

Other observations

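Mitotic genes, which p21 is known to lower through the DREAM complex, were called higher with Srebf2 in 6 of 15 and lower in 0, beside 8.4% and 8.84% of all tested genes, with a median log2 fold change of 0.14 beside 0. With the GC and length offsets 5 of 15 were higher and Ccnb1 did not pass. Ccna2, cyclin A, went from 171, 155 and 158 CPM to 195, 233 and 206 CPM (log2 fold change 0.39, SE 0.0629, edgeR adjusted p = 0.000743). Mki67, a proliferation marker, went from 237, 226 and 231 CPM to 309.9, 317 and 252 CPM (log2 fold change 0.34, SE 0.0732, edgeR adjusted p = 0.00747), and Birc5 and Ccnb1 both stood at 0.23. The other 5 comparisons called 0 of the 15 with edgeR; DESeq2 called 1 lower with transfected Prrx1 and 1 with Snai1. At an unadjusted p under 0.05 there were 5, 3, 3, 1 and 1 with Prrx1 induction, transfected Prrx1, Snai1, Egr1 and Jun.

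Of 10 genes of the ATF4 stress response, which shares Ddit4 with p53, Prrx1 induction lowered 3 of 9 tested, beside 2.74% of all genes, and 2 with the GC and length offsets, which left out Ddit3. Chac1, a glutathione-degrading enzyme, went from 20.8, 26.9 and 22.7 CPM to 14.0, 15.4 and 15.4 CPM (log2 fold change -0.65, SE 0.148, edgeR adjusted p = 0.0246), and Ddit3 stood at -0.53. Ppp1r15a (Gadd34), a phosphatase subunit that restores translation after stress, was lower in 4 of the 6 comparisons. With Egr1 and Jun, which share controls, it went from 130.04, 149.6 and 132 CPM to 86.0, 74.5 and 69.5 CPM (log2 fold change -0.84, SE 0.0768, edgeR adjusted p = 0.00127) and 72.8, 76.8 and 78.1 CPM (log2 fold change -0.86, SE 0.0774, edgeR adjusted p = 0.000894). With Srebf2 it went from 70.0, 74.0 and 73.0 CPM to 49.0, 41.9 and 50.3 CPM (log2 fold change -0.62, SE 0.0668, edgeR adjusted p = 2.51e-05) and with Prrx1 induction from 80.2, 86.7 and 67.5 CPM to 49.0, 54.4 and 58.9 CPM (log2 fold change -0.53, SE 0.115, edgeR adjusted p = 0.0199). No treated library reached its controls in any of these 4. With transfected Prrx1 and Snai1, edgeR called 0 of the 10 and DESeq2 2 and 3, all lower, with 3 and 5 at an unadjusted p under 0.05. With the offsets edgeR called 3 and 2 lower.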
